A study of Homo sapiens with 2 samples.

Results

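The epithelial microRNA genes examined here were MIR200A, MIR200B and MIR429, which form the miR-200 cluster on chromosome band 1p36, MIR200C and MIR141, which form the miR-200 cluster on 12p13, and, apart from these, MIR205HG, the host gene of the hairpin MIR205, and MIR21. They were chosen by name and are 7 of the 62663 genes in GENCODE release 44, and every peak of open chromatin over their gene bodies or within 20 kb on either side was taken, on the hg38 build. This gave 4 loci of 166581 bp in all, which held 44 of the 245736 peaks of replicate 1 and 47 of the 259745 peaks of replicate 2. Peaks of the replicates that overlapped by at least 1 bp were merged, and the loci held 40 of the 215195 such shared regions in the genome.

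Chromatin accessibility had been measured by ATAC-seq, in which the transposase Tn5 inserts sequencing adapters into open DNA. The cells were CAMA-1, an established epithelial cell line from a human breast adenocarcinoma, used as a model of breast cancer. According to the paper, the CAMA-1 cells of the study had been passaged long-term. Both libraries came from 50000 untreated adherent cells each, labelled as biological replicates of 1 condition, so that no treated or control group existed and no groups were compared. CAMA-1 is a single line grown in serum, and the values describe that line rather than mammary epithelium at large. The peak caller MACS2 had been run on each replicate separately, and its fold enrichment is the number of reads stacked at the highest base of a peak, plus 1, over the background of that library, plus 1. The deposited values lay on a regular grid, with a step of 0.230 in replicate 1 and 0.221 in replicate 2, which gave the stacked reads of each peak (its height) and backgrounds of 3.35 and 3.52 stacked reads. The lowest height in either list was 11 and the median was 35 in both, and signal below the calling threshold could not be seen. The lists hold no read totals, so the intervals of heights below are exact Poisson 95% intervals, meant for counting error only. They treat the height as a plain count, although it is the maximum of a peak that passed a threshold. Their coverage is therefore nominal.

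Genes that mark cell types were examined next, from lists chosen with earlier results of these data known. These lists are therefore no independent check of the label of the cells. The genes were scored by peaks within 1 kb of any of their transcription start sites (TSSs). All 9 of the luminal or epithelial markers had such a peak in both replicates, at 31.9-fold for ESR1, the estrogen receptor, to 143-fold for KRT8, a keratin of simple epithelia (means of the replicates). The blood markers PTPRC, CD3E, SPI1 and HBB had no peak there in either replicate. A peak was present at 4 of 4 fibroblast or mesenchymal markers (9.36 to 70.3-fold) and at 3 of 3 basal markers (5.85 to 27.0-fold). It was also present at 2 of 3 endothelial markers, KDR (39.0-fold) and CDH5 (60.9-fold), with none at PECAM1. Across all protein-coding genes the share with a TSS peak in both replicates was 79.3%. The part of such open starts of other lineages in the values below was not tested.

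MicroRNAs are transcribed as long primary transcripts, cut in the nucleus to a hairpin and then in the cytoplasm to a short RNA that guides Argonaute proteins to messages, which it recognises mainly through its seed, bases 2 to 8. Members of the miR-200 family are enriched in epithelia, where they repress ZEB1 and ZEB2, the zinc-finger repressors of E-cadherin, and ZEB proteins in turn repress the miR-200 genes through E-boxes. MiR-205 is known from stratified and basal epithelia and shares the ZEB messages as targets, and miR-21 is abundant in many carcinomas and represses tumour suppressors such as PDCD4. Because hairpins are processed from longer transcripts, the start of transcription, where open chromatin is usually found, can lie far from the hairpin itself.

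The guide strands of all 7 hairpins are shown because their seeds define which of these genes act on the same messages. They were taken from RefSeq (GRCh38.p14), and capitals mark the seed. The first 3 share the seed AAUACUG, the next 2 share AACACUG, and the last 2 each have a seed of their own.
hsa-miR-200b-3p: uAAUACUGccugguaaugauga
hsa-miR-200c-3p: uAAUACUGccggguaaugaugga
hsa-miR-429: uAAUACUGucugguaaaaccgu
hsa-miR-200a-3p: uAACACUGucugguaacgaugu
hsa-miR-141-3p: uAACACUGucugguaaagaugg
hsa-miR-205-5p: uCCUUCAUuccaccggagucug
hsa-miR-21-5p: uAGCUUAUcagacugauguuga
Each seed group of the miR-200 family drew from both clusters. MiR-200b and miR-429 come from 1p36 and miR-200c from 12p13, while miR-200a comes from 1p36 and miR-141 from 12p13. The seeds of the groups differ by 1 base, U4C, counted from 1 at the 5′ end of the mature microRNA. Among the 2370 mature names in the table, the seed AAUACUG occurred in 3 and AACACUG in 2, all of them family members shown above. The seed of miR-205-5p occurred in 1 name and that of miR-21-5p in 2. Aligned from the 5′ end over 22 positions without gaps, miR-200b-3p and miR-200c-3p had 20 identical positions, as did miR-200a-3p and miR-141-3p, so that in each case the closest relative was encoded on the other chromosome.

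All 4 loci held open chromatin in both replicates, with 9 shared regions at 1p36, 9 at 12p13, 7 at MIR205HG and 15 at MIR21. Peaks covered 18.3% ± 0.935 (SD, n = 2) of the bases at 1p36, 21.6% ± 0.798 at 12p13, 11.7% ± 0.0867 at MIR205HG and 41.0% ± 0.443 at MIR21. Over all 4 loci the covered share was 22.7% in replicate 1 and 22.9% in replicate 2, against 3.67% and 3.87% of the genome. The order of the loci by covered share was the same in both replicates. At 1p36 the shares were 18.9% and 17.6%, and at 12p13 they were 21.0% and 22.2%, and this order depended on the distance taken. With 10 kb on either side, 1p36 had 33.5% and 30.4% and 12p13 had 21.7% and 22.3%. With 50 kb, 1p36 was again the more covered in both replicates (means of 19.8% against 16.2%). The first place of MIR21 also depended on the distance. With 50 kb it had 18.4% and 19.0%, below 1p36 in both replicates. The difference between the clusters was not tested. Of the 40 regions, 13 belonged to the strongest 10% of peaks in both replicates, against 10.9% of all shared regions in the genome. At least 1 kb was spanned by 15 of the 40, against 10.1% of all shared regions. A fold enrichment above the genome's median region in both replicates was found for 23 of the 40, against 46.5%, and these were unevenly spread, with 2 of 9 at 1p36, 7 of 9 at 12p13, 3 of 7 at MIR205HG and 11 of 15 at MIR21.

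**Figure D1:**
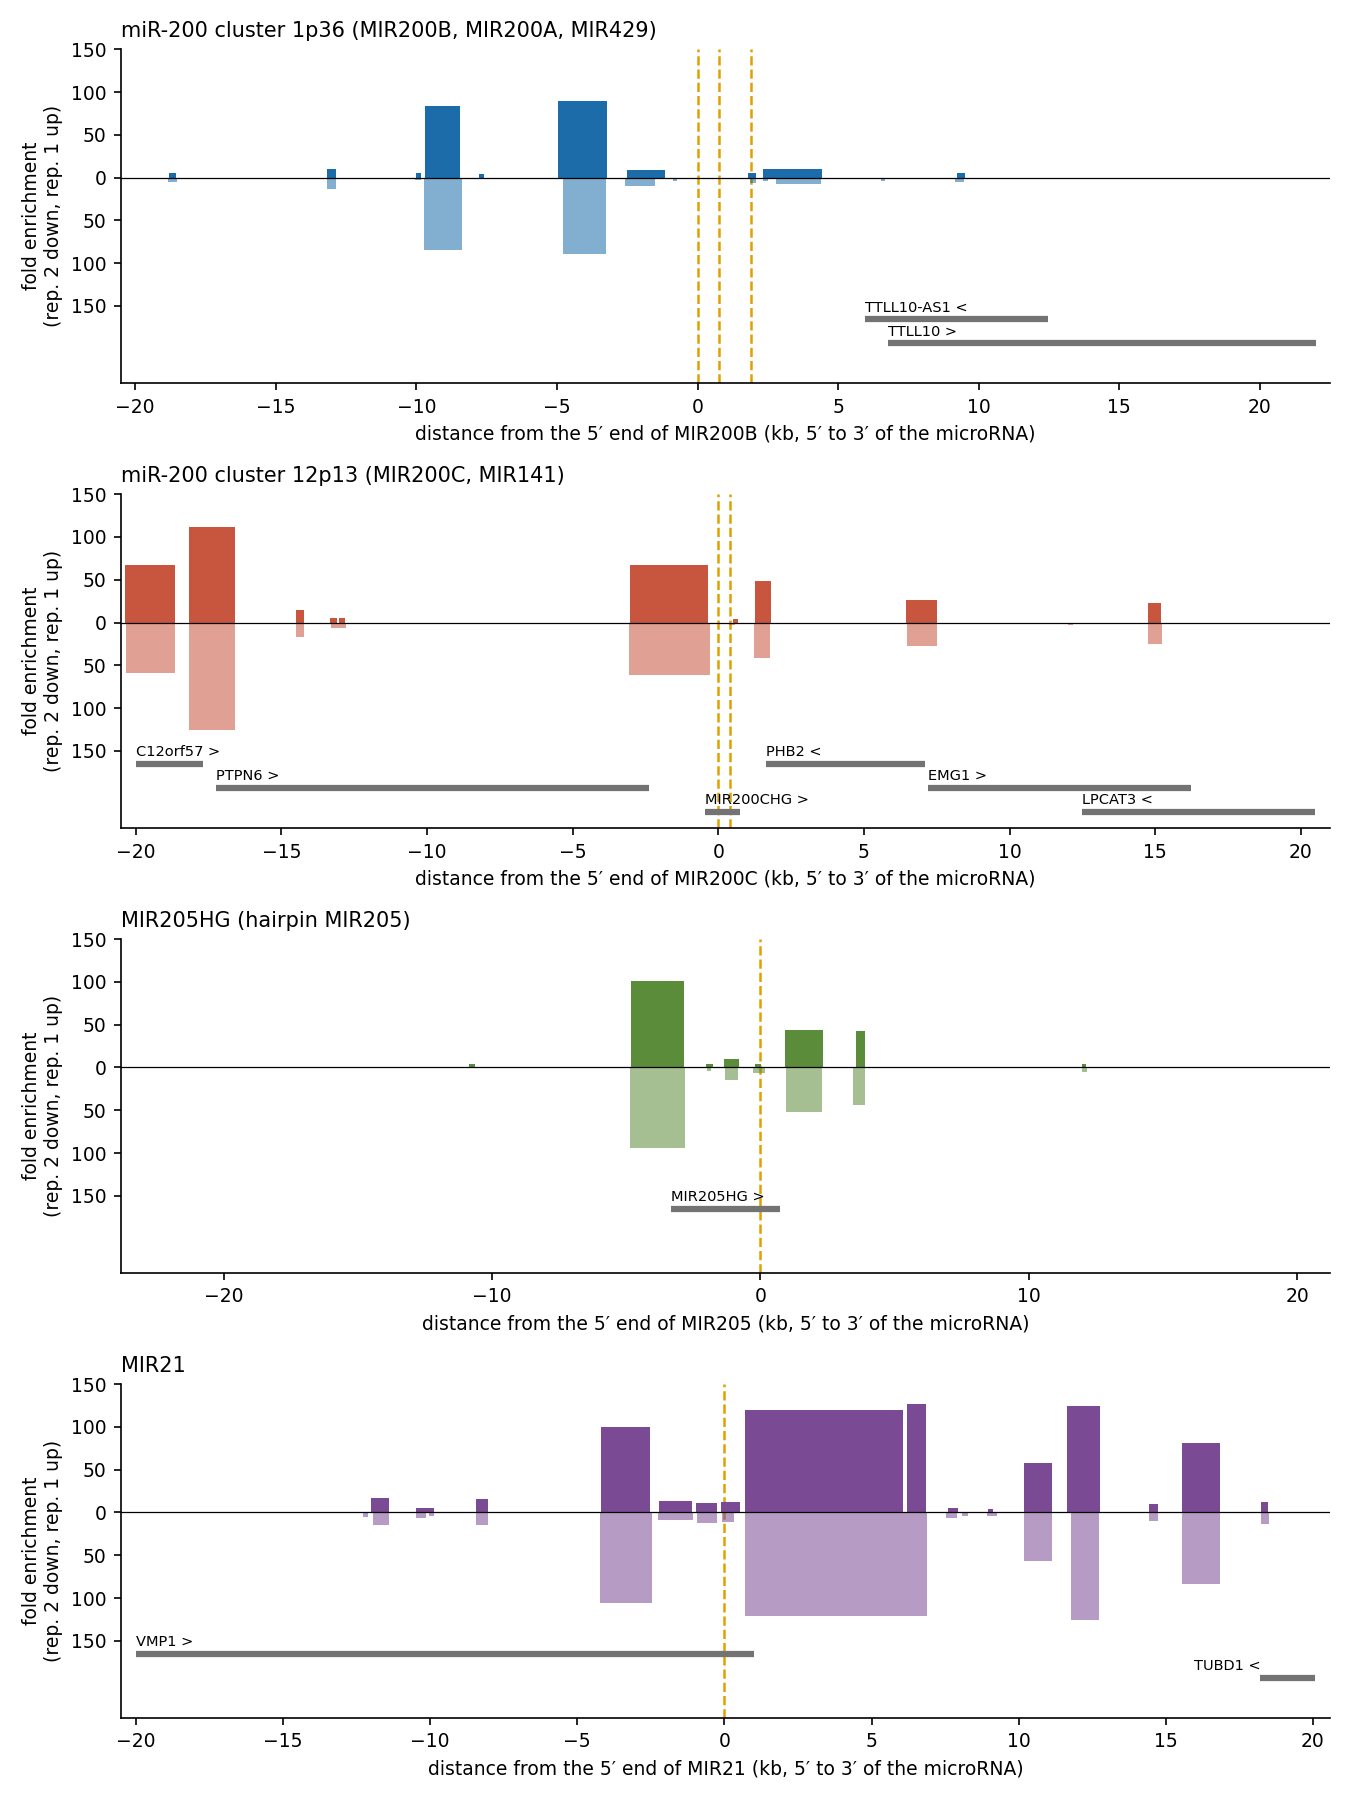
Peaks of the 4 loci drawn to scale along the distance from the first hairpin (kb), with fold enrichment of replicate 1 upwards and replicate 2 downwards. Dashed lines mark hairpins and grey bars the named protein-coding and long noncoding genes with their direction of transcription. The tall peaks stand beside the hairpins rather than over them, and both replicates show them at the same places.

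In the 1p36 cluster, MIR200B (chr1:1167104-1167198), MIR200A (chr1:1167863-1167952) and MIR429 (chr1:1169005-1169087) lie in this order on the forward strand, and the annotation gives no transcript of another gene that contains any of them. The strongest open chromatin of the cluster lay upstream, in a pair of regions that hold no annotated TSS of a protein-coding or long noncoding gene. Windows of 300 bases at the midpoints of these regions are shown, the first from the nearer region (chr1:1162857-1163156) and the second from the farther one (chr1:1157897-1158196), both on the forward strand of hg38. Capitals mark matches to the motifs searched on both strands, which in the first are the E-box bound by ZEB proteins, CAGGTG or its complement, and in the second the ETS motif CCGGAA and the AP-2 motif GCCNNNGGC.
1p36 upstream region: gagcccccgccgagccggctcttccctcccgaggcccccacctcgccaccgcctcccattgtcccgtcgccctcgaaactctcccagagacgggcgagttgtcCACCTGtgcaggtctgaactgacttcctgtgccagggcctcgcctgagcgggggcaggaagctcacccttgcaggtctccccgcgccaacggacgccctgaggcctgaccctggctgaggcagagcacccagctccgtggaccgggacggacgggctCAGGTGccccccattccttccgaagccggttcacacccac
1p36 far upstream region: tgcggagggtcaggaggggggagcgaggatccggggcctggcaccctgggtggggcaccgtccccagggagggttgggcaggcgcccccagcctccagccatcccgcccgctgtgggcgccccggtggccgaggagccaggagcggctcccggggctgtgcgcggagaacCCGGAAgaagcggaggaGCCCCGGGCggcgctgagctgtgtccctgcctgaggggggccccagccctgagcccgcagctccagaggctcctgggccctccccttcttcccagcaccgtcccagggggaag
The first window held 2 E-box matches, a GC content of 69.7% and 23 CpG sites, with a ratio of observed to expected CpG of 0.657. The second had a GC content of 76.0%, 21 CpG sites and a ratio of 0.487. Both were thus richer in GC and CpG than the median window of a shared region in the genome (49.0% and 0.193) and richer in GC than the median RefSeq promoter of the same length (58.7%).

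The nearer of these, the strongest region of the 1p36 cluster, spanned 1162133 to 1163879 and ended 3225 bp upstream of MIR200B. Its fold enrichment was 89.3 in replicate 1 and 89.3 in replicate 2, a mean of 89.3 ± 0.0419 (SD, n = 2). Its heights were 387 (349 to 428) and 403 (365 to 444) stacked reads, which placed it above 97.7% of peaks in each replicate. The farther region spanned 1157377 to 1158715 and ended 8389 bp upstream of MIR200B. It reached 84.0-fold in replicate 1 and 85.1-fold in replicate 2, with a mean of 84.6 ± 0.813, and thus differed little from the nearer region in either replicate.

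The other 7 regions at 1p36 were much weaker, with mean fold enrichments of 3.96 to 11.7. The hairpin of MIR429 lay wholly under a region of 293 bp, of 5.98-fold in replicate 1 and 5.75-fold in replicate 2, with a height of 25 (16.2 to 36.9) in both. MIR200B and MIR200A lay under no peak. The nearest peak to MIR200B was 1171 bp away in replicate 1 (8.97-fold) and 733 bp away in replicate 2 (4.20-fold), and this last peak was called in replicate 2 alone. For MIR200A the nearest peak was that over MIR429, at 934 bp and 1022 bp. A wide region of 2080 bp began 345 bp downstream of MIR429, with 10.1-fold and 7.96-fold, and came within 75 bp of the start of ENSG00000272141, a long noncoding RNA on the same strand. Of the other genes with starts in the locus, TTLL10, which encodes a tubulin ligase-like protein, had no peak within 1 kb of its starts in replicate 1 and one of 3.54-fold in replicate 2, and TTLL10-AS1 had none in either.

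In the 12p13 cluster, MIR200C (chr12:6963699-6963766) and MIR141 (chr12:6964097-6964191) lie on the forward strand within a single annotated transcript of MIR200CHG, a long noncoding host gene that starts 473 bp before MIR200C. The RefSeq promoter of MIR200CHG (GRCh38.p14, chr12:6962995-6963294, forward strand) is shown because the region over this start was the strongest one near the hairpins. Capitals mark 2 AP-2 matches and 1 E-box match.
MIR200CHG promoter: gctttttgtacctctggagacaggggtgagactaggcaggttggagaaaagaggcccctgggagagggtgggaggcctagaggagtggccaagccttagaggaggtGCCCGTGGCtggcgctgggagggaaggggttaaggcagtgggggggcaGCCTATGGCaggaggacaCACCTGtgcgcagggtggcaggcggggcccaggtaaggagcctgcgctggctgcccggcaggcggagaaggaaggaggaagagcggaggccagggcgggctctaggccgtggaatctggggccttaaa
Its GC content was 65.7% and it held 10 CpG sites, with a ratio of observed to expected CpG of 0.365, below the median promoter (0.579).

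The region over the MIR200CHG start spanned 2772 bp, from 6960634 to 6963405, and ended 294 bp before MIR200C. It reached 67.0-fold in replicate 1 and 61.5-fold in replicate 2, a mean of 64.2 ± 3.88 (SD, n = 2), and heights of 290 (258 to 325) and 277 (245 to 312). It also reached into the 3′ end of PTPN6. A further region, 746 bp downstream of MIR141, lay at the start of the long noncoding RNA ENSG00000271969, with 48.8-fold and 41.1-fold. Strong open chromatin therefore flanked the pair of hairpins on both sides, within 1 kb of the outer end of each.

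The hairpins themselves held little. MIR200C lay under no peak, with the nearest at 341 bp in replicate 1 and 285 bp in replicate 2. At MIR141 a weak region of 4.14-fold and 3.10-fold was called, the weakest of the cluster. Its replicate 2 peak covered the whole hairpin, and its replicate 1 peak stopped 21 bp short of it. Heights there were 17 (9.90 to 27.2) and 13 (6.92 to 22.2), close to the lowest height that was called at all.

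The strongest region of the 12p13 locus was not at the microRNAs but at PTPN6, which encodes the phosphatase SHP-1, 16589 bp upstream of MIR200C. It spanned 6945511 to 6947110, with 111-fold in replicate 1 and 126-fold in replicate 2 (mean 118.7 ± 10.4). Of the 18 PTPN6 starts in the locus, 5 lay under a peak. Next to it, a region over the starts of C12orf57 reached 67.4-fold and 59.3-fold. On the other side, PHB2, which encodes a prohibitin of the inner mitochondrial membrane, and EMG1, a ribosome biogenesis factor, shared a region between their diverging starts with 26.5-fold and 27.9-fold. LPCAT3, an acyltransferase of phospholipid remodelling, had a region of 22.3-fold and 25.0-fold that began within 1 kb of a start but lay over none. Together with ENSG00000290146, which starts beside EMG1, all 6 protein-coding genes with a start in the locus had a peak within 1 kb of a start in both replicates, against 79.3% of all protein-coding genes.

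MIR205HG runs on the forward strand from 209428817 to 209432848 of chromosome 1, and its hairpin MIR205 (chr1:209432133-209432242) lies in it. The RefSeq promoter of the gene (GRCh38.p14, chr1:209428570-209428869, forward strand) is shown because the strongest region of the locus lay over it. Capitals mark its single match, to the GATA motif AGATAA.
MIR205HG promoter: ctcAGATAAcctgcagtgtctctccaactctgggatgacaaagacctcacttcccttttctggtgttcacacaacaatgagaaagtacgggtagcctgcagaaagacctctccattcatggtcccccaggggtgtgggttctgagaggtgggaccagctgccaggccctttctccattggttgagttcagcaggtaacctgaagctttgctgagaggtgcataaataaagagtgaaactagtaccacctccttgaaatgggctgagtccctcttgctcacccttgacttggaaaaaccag
It had a GC content of 50.3% and 1 CpG site, with a ratio of observed to expected CpG of 0.0527, far below that of the median promoter (0.579) and of the promoter of MIR200CHG (0.365).

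The region over the MIR205HG starts spanned 2042 bp, from 209427293 to 209429334, and ended 2799 bp before MIR205. It reached 101-fold in replicate 1 and 93.5-fold in replicate 2, a mean of 97.2 ± 5.12 (SD, n = 2), with heights of 437 (397 to 480) and 422 (383 to 464). Of the 10 distinct starts annotated for the gene, 8 lay under it. MIR205 itself lay under a weak region of 3.91-fold in replicate 1 and 6.63-fold in replicate 2, with heights of 16 (9.15 to 26.0) and 29 (19.4 to 41.6) that overlap within their counting intervals. Replicate 1 covered 30 of the 110 bp of the hairpin and replicate 2 covered all of it, so that the stretch of miR-205-5p (chr1:209432166-209432187) lay under the peak of replicate 2 and just past the end, at 209432162, of that of replicate 1.

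Downstream of MIR205, a pair of regions without such a TSS were again strong. The first began 809 bp past the hairpin, spanned 1409 bp and had 43.9-fold and 51.5-fold. The second began at 3335 bp and had 43.0-fold and 43.6-fold. Within the gene, a region 806 bp upstream of the hairpin had 9.43-fold and 14.6-fold. The remaining regions, 1769 bp upstream and 11866 bp downstream, had mean fold enrichments of 4.18 and 4.84. TP63, which encodes a transcription factor of basal epithelia where MIR205HG is known to be expressed, had a TSS peak of 5.29-fold and 6.41-fold.

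MIR21 (chr17:59841266-59841337, forward strand) lies at the 3′ end of VMP1, a gene for a membrane protein of autophagy, and 10 annotated VMP1 transcripts contain it. These start at 2 places. Of these, 8 begin 133548 to 133768 bp upstream, under a peak of 155-fold in replicate 1 and 158-fold in replicate 2 that lies outside the 20 kb taken here, and a pair of short transcripts begins 3335 and 3315 bp upstream. Shown are 300 bases of hg38 around the first of these internal starts (chr17:59837681-59837980, forward strand), in which capitals mark a match to the grainyhead motif AACNNGTT and one to the STAT motif TTCNNNGAA. Below it is the window at the midpoint of the strongest region of the locus (chr17:59853321-59853620), with matches, in order, to the FOX motif TGTTTAC, the AP-1 motif TGANTCA, the AP-2 motif and the E-box.
VMP1 internal start: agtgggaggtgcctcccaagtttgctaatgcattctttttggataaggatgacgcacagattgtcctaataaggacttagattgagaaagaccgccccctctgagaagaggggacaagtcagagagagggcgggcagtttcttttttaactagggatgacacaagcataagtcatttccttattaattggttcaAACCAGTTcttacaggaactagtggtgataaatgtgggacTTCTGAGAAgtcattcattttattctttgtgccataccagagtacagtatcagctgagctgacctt
MIR21 distal region: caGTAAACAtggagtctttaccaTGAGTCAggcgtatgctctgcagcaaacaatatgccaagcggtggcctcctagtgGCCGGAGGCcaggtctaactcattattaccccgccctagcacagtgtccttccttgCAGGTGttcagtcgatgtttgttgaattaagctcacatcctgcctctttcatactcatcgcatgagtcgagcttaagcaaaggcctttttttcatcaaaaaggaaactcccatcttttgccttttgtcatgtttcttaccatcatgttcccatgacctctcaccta
Both were poorer in GC, at 43.0% and 46.7%, than the windows shown from 1p36 and 12p13.

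The region over the internal VMP1 starts spanned 59837044 to 59838808, ended 2458 bp before MIR21, and had 100.3-fold in replicate 1 and 106-fold in replicate 2 (mean 103 ± 3.80, SD, n = 2). MIR21 lay wholly under a region of 677 bp with 12.2-fold and 10.8-fold and heights of 52 (38.8 to 68.2) and 48 (35.4 to 63.6). Among the hairpins this was the strongest peak over a hairpin in both replicates, and its height interval lay above those over MIR205 and MIR429 in replicate 1 but overlapped both in replicate 2. Upstream between the hairpin and the internal starts, a pair of regions had mean fold enrichments of 11.4 and 11.0.

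The strongest regions lay downstream. One of 6191 bp, from 59841949 to 59848139, began 612 bp past the hairpin and had 127-fold and 121-fold (mean 124.3 ± 4.13). Replicate 1 had called 2 peaks where replicate 2 had called 1, of 119-fold nearer to the hairpin and 127-fold from 59847456 onwards. The other, 1120 bp wide from 59852911 to 59854030, began 11574 bp past the hairpin, and had 125-fold in both (mean 124.9 ± 0.316). Their means thus differed by less than the spread of the first between replicates, and neither region held an annotated start of a protein-coding or long noncoding gene, although the first overlapped RNU6-450P, annotated as a small nuclear RNA. Regions 10111 bp and 15467 bp downstream had 57.3-fold and 56.6-fold, and 81.5-fold and 83.1-fold. At the far end, a region of 12.9-fold ± 0.277 lay over an exon of TUBD1, which encodes delta-tubulin. In the surrounding 1 Mb on either side of each locus, the median region had 8.86-fold and 9.95-fold at MIR21, 10.2-fold and 9.73-fold at 1p36, 14.6-fold and 13.8-fold at 12p13, and 10.8-fold and 12.1-fold at MIR205HG, against 9.66-fold and 9.95-fold for all shared regions of the genome.

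By the strongest region of each locus, the order from the mean was MIR21 (124.9-fold), 12p13 (118.7-fold), MIR205HG (97.2-fold) and 1p36 (89.3-fold). MIR21 and 12p13 overlapped between replicates, as 12p13 was the higher in replicate 2, whereas MIR205HG lay above 1p36 and below 12p13 in both, although its height intervals overlapped those of 1p36 in each replicate and those of 12p13 in replicate 1. The place of 12p13 rests on the PTPN6 region, 16589 bp from MIR200C, and within 10 kb its strongest region was that of MIR200CHG (64.2-fold), the lowest of the 4 loci. Fold enrichment is relative to a single background per library and was not corrected for copy number, and the paper reports copy-number aberrations in CAMA-1. The part of copy number in this order, and in the comparison with other microRNA genes below, was not tested.

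The replicates were close to one another at these loci. The log2 ratio of replicate 2 to replicate 1 had a median of 0.01 over the 40 regions and ranged from −0.69 to 0.76. The central 95% of all shared regions of the genome lay between −0.56 and 0.63, and 3 of the 40 regions fell outside it. These were the weak region 9822 bp upstream of MIR200B, the region 1055 bp upstream of MIR21 (13.6-fold and 8.40-fold), and the region over MIR205. A further 2 peaks of replicate 1 and 5 of replicate 2 had no partner in the other replicate, and all of these were weak, at 3.32-fold to 4.86-fold.

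**Figure D2:**
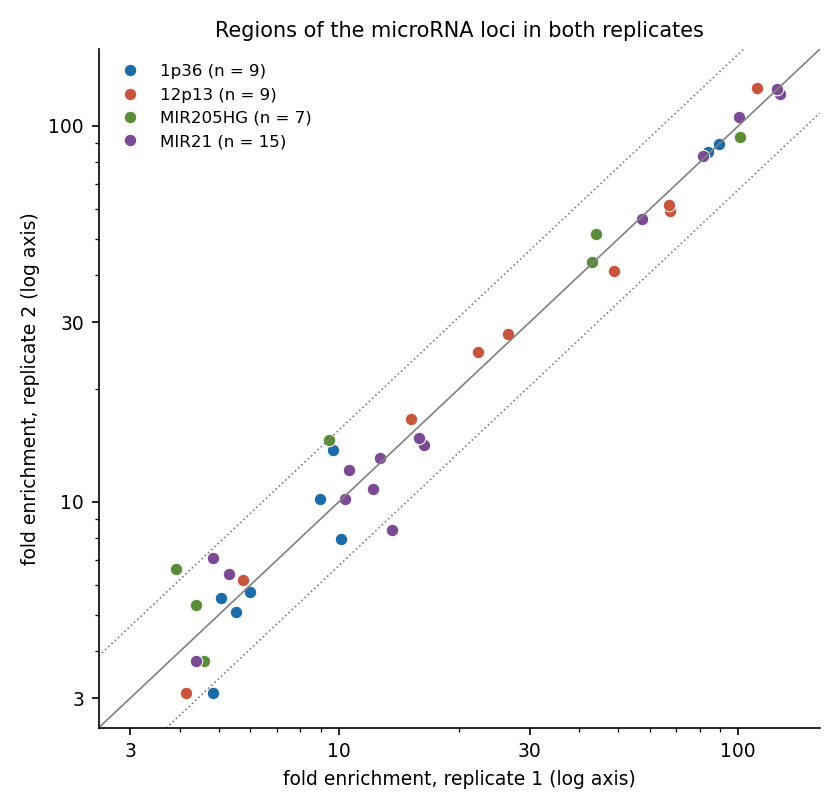
Fold enrichment of the 40 shared regions in replicate 1 (x axis) and replicate 2 (y axis), both on log axes, coloured by locus. The solid line marks equal values and the dotted lines the central 95% of all shared regions, outside of which 3 points fall, all of them below 14-fold.

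The hairpins and the starts of their transcripts were then taken apart. A peak lay over the hairpin in both replicates for MIR429, MIR205 and MIR21, 3 of 7, against 16.9% of the 1879 annotated microRNA genes, and all 3 peaks were at most 12.2-fold. Within 1 kb, 5 of the 7 hairpins had a peak in both replicates, against 38.6%, the exceptions being MIR200B and MIR200A. Within 20 kb all 7 did, against 88%. For the 4 hairpins that lie in a transcript of another gene, namely MIR200C, MIR141, MIR205 and MIR21, a start of that transcript had a peak within 1 kb in both replicates (4 of 4, against 78.7% of the 1368 microRNA genes of this kind). These peaks were of 61.5-fold or more. Both long noncoding hosts, MIR200CHG and MIR205HG, had such a peak, against 43.8% of long noncoding genes. At 1p36, where no host transcript is annotated, the strongest regions stood at 84.6-fold and 89.3-fold without an annotated start of a protein-coding or long noncoding gene.

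**Figure D3:**
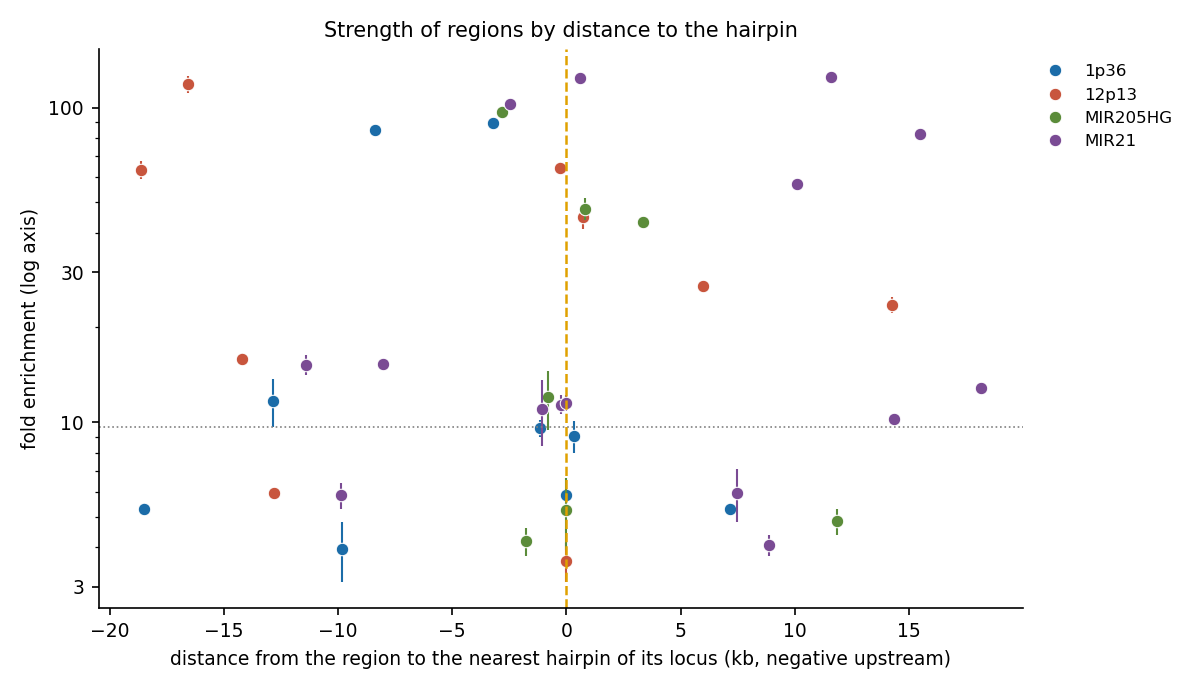
Mean fold enrichment (log axis) of each shared region against its distance to the nearest hairpin of its locus (kb, negative upstream), with a vertical line from the lower to the higher replicate and the median of all shared regions in replicate 1 dotted. Regions over a hairpin, at 0, lie between 3.62-fold and 11.5-fold, while all regions above 80-fold lie beside one.

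The neighbourhoods of these hairpins were also set against those of all 1879 annotated microRNA genes, each taken with 20 kb on either side. The median microRNA gene had 4 shared regions, 5.25% of bases under peaks and a strongest region of 37.2-fold. MIR21 stood highest of the members on all of these measures, with 15 regions (at percentile 94.3), 41.0% of bases (96.3) and 124.9-fold (91.2). MIR200C, MIR141, MIR200B and MIR200A had 9 regions each and MIR429 had 8. For MIR200C and MIR141 the strongest region, that of PTPN6, stood at percentile 90.4. MIR200B, MIR200A and MIR429 had their strongest region at percentile 80.1 and their covered bases at percentiles 83.0 to 83.6. MIR205 was lowest in regions (7, percentile 67.3) and in covered bases (12.8%, percentile 75.4). Its strongest region, at percentile 83.4, was above that of the 1p36 cluster. Hairpins of a cluster share nearly all of their neighbourhood, so these percentiles describe 4 places rather than 7.

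**Figure D4:**
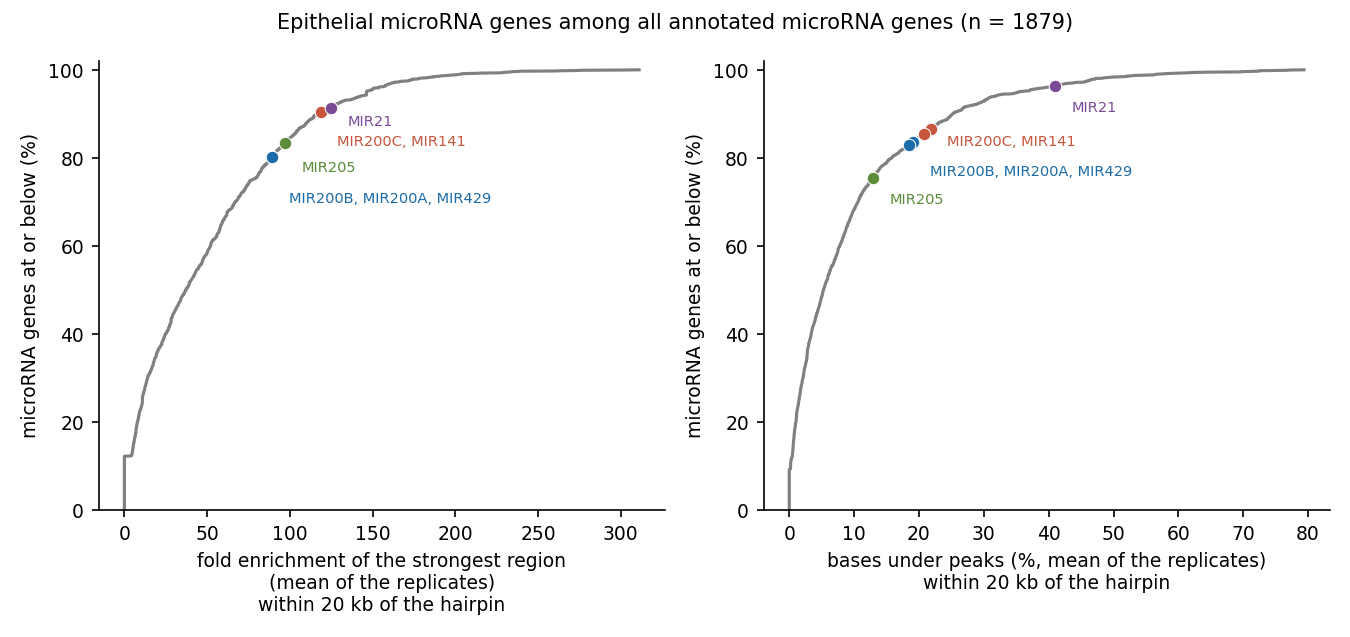
Cumulative share of all 1879 annotated microRNA genes (y axis, %) by the fold enrichment of the strongest region within 20 kb (left) and by the bases under peaks within 20 kb (right, %). Coloured points mark the 7 hairpins, of which MIR21 stands farthest to the right in both panels and MIR205 farthest to the left by covered bases.

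Short motifs were counted in 300-base windows at the midpoints of the regions, on both strands, as a description of the sequence. The promoters of MIR200CHG and MIR205HG printed above are not such windows, and their matches are not among these counts. The E-box CAGGTG occurred in 11 of the 40 windows, with 3 at 1p36, 2 at 12p13, 2 at MIR205HG and 4 at MIR21, against 30.4% of 215187 windows in the genome and 20.6% of 35116 RefSeq promoters. The AP-2 motif GCCNNNGGC occurred in 9, of which 5 were among the 7 windows of MIR205HG (15.6% of windows and 23.2% of promoters in the genome). The STAT motif occurred in 5 (8.43% and 7.66%), and the AP-1 motif TGANTCA in 4, with 3 at MIR21, 1 at MIR205HG and none in the miR-200 clusters (13.5% and 7.71%). The GATA motif AGATAA was likewise in 4 windows, 3 at MIR21 and 1 at MIR205HG (14.3% and 10.3%). The FOX motif TGTTTAC (7.38% and 3.42%), the grainyhead motif AACNNGTT (6.08% and 3.52%) and the ETS motif CCGGAA (4.80% and 17.2%) were in 3 windows each, and the palindromic estrogen response element was in none (0.0902% and 0.0570%). Matches of different motifs may overlap, although none did in the windows printed above, and a match shows that these letters are present, without showing that a factor binds them.

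The genes that make and use microRNAs were open at their starts. All 16 of the listed genes of microRNA processing had a TSS peak in both replicates, with a median of 69.8-fold, against the 79.3% of protein-coding genes given above. DROSHA, the nuclear enzyme that frees the hairpin, had 105-fold and 109-fold, and its partner DGCR8 had 83.1-fold and 90.7-fold. DICER1, which cuts the hairpin to its mature length, had 56.6-fold and 65.0-fold, and TARBP2, a partner of DICER1, had 117-fold in both. Among the Argonautes, AGO2, the one that can cleave its target, had 62.8-fold and 68.1-fold, and AGO4 was the lowest of the list with 10.6-fold and 8.18-fold.

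Of 16 genes known as targets or regulators of these microRNAs, 15 had a TSS peak in both replicates, with a median of 58.0-fold, again against 79.3% of protein-coding genes. The pair of classical miR-200 targets differed in that ZEB1 had 23.0-fold in both replicates, whereas ZEB2 had no peak in replicate 1 and one of 3.98-fold in replicate 2. CDH1, the E-cadherin gene that ZEB proteins repress, had 89.0-fold and 81.6-fold, and GRHL2, an epithelial transcription factor of the grainyhead family, had 131-fold and 138-fold. For the targets of miR-21, PDCD4 had 73.9-fold and 72.8-fold, TPM1 113-fold and 99.9-fold, and RECK 12.2-fold and 11.1-fold, and TIMP3 was lowest with 4.14-fold and 3.76-fold. STAT3, a known activator of MIR21, had 125-fold and 111-fold. An open start is not a measure of the amount of a gene's RNA, which was not analysed here.

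**Figure D5:**
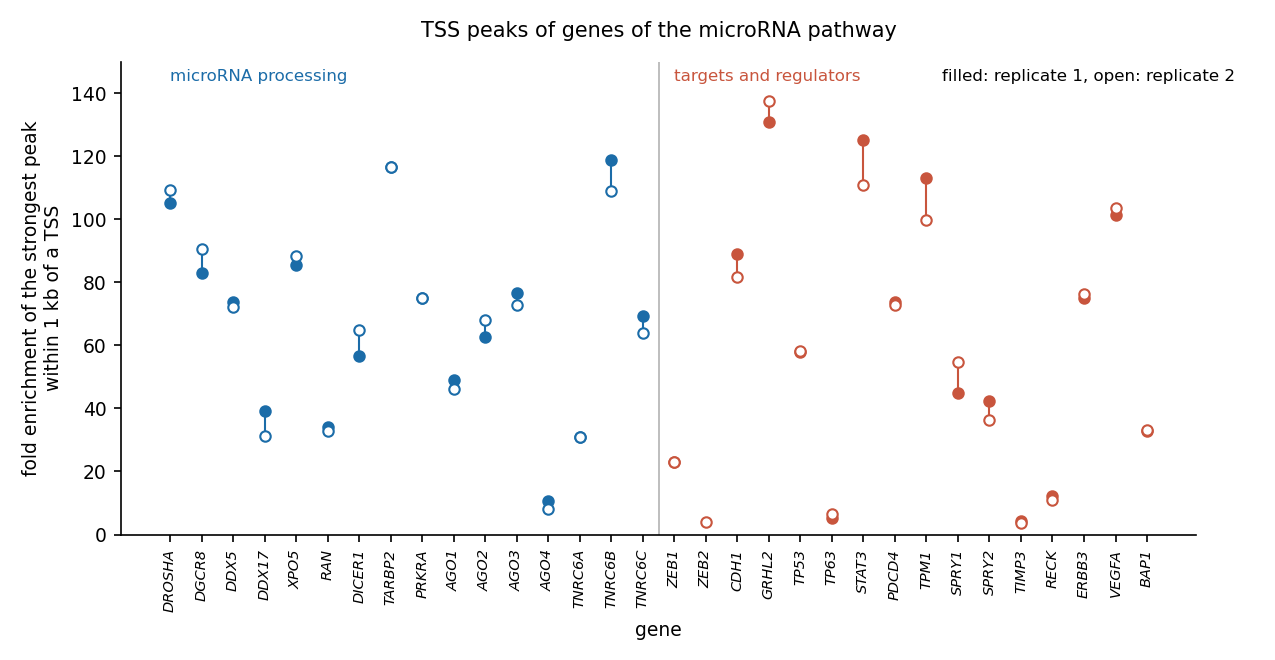
Fold enrichment of the strongest peak within 1 kb of a TSS for genes of microRNA processing (blue) and for targets and regulators (red), with replicate 1 filled and replicate 2 open. AGO4, TP63, TIMP3 and RECK lie below 13-fold, and ZEB2 has a point for replicate 2 alone.

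Other microRNA genes were compared by peaks within 1 kb of the gene. Such a peak was present in both replicates for 7 of 8 listed microRNA genes of epithelia or breast, 2 of 5 broadly expressed ones and 9 of 17 known from other lineages, or 18 of 30, against the 38.6% of all microRNA genes given above. The 30 include the long host genes MIR17HG and MIR155HG, which were counted over their whole bodies, unlike the hairpins behind that share. All 30 had a peak within 20 kb, against 88% of microRNA genes. MIR203A, known from differentiating epidermis, lay under a peak of 86.5-fold and 95.3-fold, and MIR375, known from secretory epithelia, under one of 74.1-fold and 74.7-fold. These peaks over a hairpin were stronger than any over the 7 hairpins described here. The hairpins MIR182, MIR183 and MIR96 of another epithelial cluster had weak peaks within 1 kb (6.67-fold to 9.20-fold) and a strong one, of 104-fold and 107-fold, within 20 kb. Among genes of other lineages, MIR219A1, known from oligodendrocytes, lay under a peak of 36.6-fold and 39.4-fold. MIR143, known like its neighbour MIR145 from smooth muscle, lay under one of 17.5-fold in replicate 1, and MIR145 had one of 34.7-fold within 1 kb in replicate 1, both also called in replicate 2. MIR155HG, known from activated lymphocytes, had a peak of 15.2-fold and 11.7-fold within 1 kb, and MIR150, known from lymphocytes, lay under one of 8.05-fold and 9.73-fold, whereas MIR142 and MIR223, known from blood cells, had none there. Within 20 kb, MIR142 had one of 70.4-fold and 70.1-fold and MIR223 one of 8.97-fold and 9.51-fold.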

How the data were processed

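Peaks of CAMA-1 ATAC-seq had been made by the authors, who trimmed the reads (Trim Galore 0.6.5), aligned them to hg38 (Bowtie2 2.3.5.1) and called peaks on each replicate separately (MACS2 2.2.6), according to the submitters' processing notes. The MACS2 settings and the handling of duplicate reads and excluded regions are not given in the sources used here. Each deposited peak carries a score, the fold enrichment as a ratio to background, the −log10 p-value and the −log10 q-value. Depth sets which peaks pass the threshold. The paper's supplement gives the total sequences of each library, but the lists hold no read counts per peak, so no count model was fitted. The fold enrichment was used as deposited, and the height was recovered from its step, to within 7.91e-05 of a step. Regions are merged peaks of both replicates, and their values are the strongest peak of each. Means are given with SD over 2 biological replicates. With 1 condition no test between groups was made. Peaks and hairpins are not replicates. Genes came from GENCODE release 44, and 0 peaks lay past the ends of hg38 chromosomes. As the lists give no summits, windows were placed at midpoints. Every member, its host genes, each protein-coding gene with a TSS in a locus, the strongest region of each locus, those nearest to hairpins and those over starts were named. The members, lists and motifs were chosen with earlier results of these data known, and 2 listed genes, a marker and a target, are not reported here. The alternatives were other thresholds, windows, distances and overlaps, another measure of strength and each replicate left out. Overlap and height functions were checked on simulated peaks first. Python 3.11.15, numpy 2.4.6, pandas 2.3.3, scipy 1.17.1 and matplotlib 3.10.9 were used.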

Additional observations from a re-analysis of the deposited data

How the results depend on the processing

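Of 69 alternatives over 14 results, 51 were counted as the same and 18 moved. The 14 include the count of regions at each locus, which are parts of the total of 40. Over the 10 main results alone, 9 of 41 alternatives moved. Reversals of order were not scored, and those of the covered share with distance are given above. The limits were 1.5 times for counts and 1 SD for values. The −log10 q in place of fold enrichment is in another unit, so 1 SD cannot apply to it. By that measure the same region ranked first at each locus. With 2 replicates, leaving one out cannot move the mean of a region or covered share by 1 SD. Such alternatives therefore tested nothing unless another region ranked first. The count of 40 shared regions became 15 with the 50000 strongest peaks of each replicate, 26 with 10 kb on either side and 79 with 50 kb, which follows from fewer peaks or another length of locus. By locus, the 9 regions at 1p36 became 2 with the strongest peaks and 27 with 50 kb, the 9 at 12p13 became 5, 4 with 10 kb and 23 with 50 kb, the 7 at MIR205HG became 3, and 4 with a −log10 q of 10 or more, and the 15 at MIR21 became 5, and 9 with 10 kb. The 3 hairpins under a peak became 5 within 1 kb. The 18 other microRNA genes became 8 when the peak had to overlap the gene itself, against 16.9% of annotated microRNA genes. These were 2 of 8 genes of epithelia or breast, 2 of 5 broadly expressed ones and 4 of 17 from other lineages. They include MIR17HG and MIR155HG, which were counted over their whole bodies. The covered share of 22.8% became 21.3% when peaks under a −log10 q of 10 were dropped, 32.3% with 10 kb and 14.9% with 50 kb on either side. At 12p13 alone it was 21.7% and 22.3% in the replicates with 10 kb, close to the 21.0% and 22.2% with 20 kb. Its mean with 50 kb was 16.2%. The other loci moved more with 10 kb. The mean share at MIR205HG went from 11.7% to 20.7% with 10 kb and 5.39% with 50 kb. At MIR21 it went from 41.0% to 57.1% and 18.7%, and at 1p36 from 18.3% to 32.0% and 19.8%. For the strongest region at MIR21, leaving out each replicate in turn gave 125 to 127, and without replicate 2 a peak at the far end of the 6191 bp region, from 59847456 to 59848129, ranked first. No paired analysis was possible because all libraries were of 1 condition and no groups existed to pair.

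A region of low height may be missed in 1 replicate, and the region over MIR141, with heights of 17 and 13, and that over MIR205 in replicate 1, with a height of 16, are close to the lowest that was called (11). With 2 replicates, an SD rests on a single difference, and signal below the calling threshold was not seen.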
